A study of Mus musculus with 18 samples.

Results

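The 10 genes described here encode the ligands, the receptors and the receptor-associated kinases of interleukin-1 signalling in mouse liver. They were chosen by name (Il1a, Il1b, Il1rn, Il1r1, Il1r2, Il1rap, Irak1, Irak2, Irak3 and Irak4) from the 21018 genes listed in at least 1 of 3 gene count tables, and all 10 were listed in each table (19424 genes in TruSeq, 18108 in Pico and 18051 in V4). Livers came from male C57/B6J mice aged 12 weeks, taken 4 hours after an intraperitoneal injection of either the cytokine IL-1β at 20 µg per kg (mice ILB.9579, ILB.9582 and ILB.9583) or saline (mice UNT.9574, UNT.9575 and UNT.9576). RNA of every mouse went into all 3 library kits, giving 18 libraries. Pico is a stranded total RNA kit (1.7 to 2.6 ng of RNA, 150 bp reads), TruSeq selects poly(A) RNA and also keeps the strand (200 ng, 125 bp), and V4 selects poly(A) RNA without keeping the strand (0.8 to 1.3 ng, 150 bp). The kits were sequenced separately, so a kit and its sequencing batch cannot be told apart, and IL-1β was therefore compared with saline inside each kit. The mice are the replicates, and the 3 kits measured the same animals.

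As background, IL-1α and IL-1β are agonists that bind the receptor chain IL-1R1, which then recruits the accessory chain IL-1RAP and, through the adaptor MyD88, the kinases IRAK4 and IRAK1 and the related IRAK2. The same family holds its own brakes, namely the receptor antagonist encoded by Il1rn, which occupies IL-1R1 without signalling, the decoy receptor IL-1R2, which binds the ligand but lacks a signalling domain, and IRAK3 (IRAK-M), which damps signalling at the receptor complex. In the liver, IL-1 is a classic trigger of the acute-phase response of hepatocytes. The counts report the animals' own transcripts and not the injected protein.

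The total count was 12348864 to 12858237 per library in TruSeq, 12013453 to 12352473 in V4 and 4024632 to 4134070 in Pico. The liver label was checked with 6 hepatocyte markers, led by the albumin gene Alb, which summed to 41310 to 47000 CPM (counts scaled to the library total) after IL-1β and 54480 to 66670 after saline in Pico. In TruSeq the sums were 59230 to 65560 and 83820 to 101500 CPM. The treatment was visible in every kit, since the acute-phase genes Lcn2, Saa1 and Saa2 and the RNase gene Zc3h12a rose in all 3. These were picked from 8 IL-1 response genes, of which Cxcl1 and Tnfaip3 did not pass an adjusted p of 0.05 (limma-voom) in any kit. In bulk liver, fewer cells of a type and less RNA per cell cannot be told apart.

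The upstream windows of Il1rn, Il1r1 and Il1a are shown because the first and the second rose strongly, the agonist Il1a was lower in TruSeq, and short motifs of inflammatory transcription factors were found in them. Each is the 250 bases before an annotated transcription start from RefSeq on build GRCm38.p6, written 5′ to 3′ on the gene's strand, at chr2:24336610-24336859 (+ strand) for Il1rn, chr1:40224830-40225079 (+ strand) and chr1:40266336-40266585 (+ strand) for 2 starts of Il1r1, and chr2:129309973-129310222 (- strand) for Il1a. Capitals mark the motif matches.
Il1rn: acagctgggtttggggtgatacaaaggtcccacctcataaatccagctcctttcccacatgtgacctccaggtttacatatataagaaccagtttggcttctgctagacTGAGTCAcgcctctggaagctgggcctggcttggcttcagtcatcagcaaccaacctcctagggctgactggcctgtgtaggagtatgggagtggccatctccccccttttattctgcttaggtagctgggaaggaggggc
Il1r1, first start: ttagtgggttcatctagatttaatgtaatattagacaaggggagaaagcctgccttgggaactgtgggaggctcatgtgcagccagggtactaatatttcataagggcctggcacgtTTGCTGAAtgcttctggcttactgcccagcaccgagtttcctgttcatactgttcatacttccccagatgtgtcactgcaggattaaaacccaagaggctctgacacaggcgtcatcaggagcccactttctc
Il1r1, second start: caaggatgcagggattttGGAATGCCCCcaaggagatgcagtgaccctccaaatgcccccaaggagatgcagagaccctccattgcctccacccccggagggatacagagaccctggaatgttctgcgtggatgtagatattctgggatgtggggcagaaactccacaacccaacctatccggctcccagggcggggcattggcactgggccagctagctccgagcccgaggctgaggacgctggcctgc
Il1a: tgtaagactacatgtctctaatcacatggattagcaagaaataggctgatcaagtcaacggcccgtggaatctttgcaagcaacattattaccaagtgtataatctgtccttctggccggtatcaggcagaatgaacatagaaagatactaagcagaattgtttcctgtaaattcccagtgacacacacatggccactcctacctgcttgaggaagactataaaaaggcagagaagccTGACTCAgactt
The windows searched also included the 50 bases after the start, on both strands. The capitals in Il1rn and Il1a are AP-1 motifs (TGANTCA), 141 bases before the first start of Il1rn and 12 before the start of Il1a. Of 32851 mouse windows, 7.81% held that motif. In Il1r1 they are a C/EBP motif (TTNNGCAA) 133 bases before the first start and an NF-kappaB consensus 232 bases before the second, both read on the other strand, which 10.8% and 8.46% of windows held. Irak1 also held an NF-kappaB consensus, and Irak3 a C/EBP motif 8 bases after its second start. The windows of Il1b, Il1rap, Il1r2, Irak2 and Irak4 held none of these letters. Neither did windows 2 and 3 of Il1rn, at its other annotated starts, which are not shown. A match describes the letters and not a bound site.

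The 3 brakes among the 10 genes rose in every kit, and the receptor Il1r1 rose with them. Il1rap and Irak2 fell in some or all kits. By limma-voom at an adjusted p of at most 0.05, 4 of the 10 genes were higher after IL-1β in Pico (Il1r1, Il1rn, Il1r2 and Irak3), where 6.78% of all genes tested were higher. The same 4 were higher in V4 (3.6% of all genes), and these 4 with Irak4 in TruSeq (12.3%). Lower were 2 genes in Pico (Il1rap and Irak2), 1 in V4 (Il1rap) and 3 in TruSeq (Il1rap, Irak2 and Il1a), against 10.8%, 7.41% and 21.8% of all genes. The IL-1β and saline mice did not overlap in CPM for 8 genes in TruSeq, 8 in Pico and 6 in V4, against 44.9%, 31.2% and 27.6% of all genes. In either direction, 8 genes were called in TruSeq, 6 in Pico and 5 in V4, against 34.1%, 17.6% and 11% of all genes. The antagonist, decoy and inhibitory kinase were 3 of 3 higher in each kit, with a median log2 fold change of 4.80 in Pico, 4.98 in V4 and 6.59 in TruSeq. Each of these medians is the value of Il1r2. In Pico and TruSeq that value depends on a small count that voom adds, since all saline libraries were at 0. In V4 it does so in part, with saline counts of 0, 0 and 6. Among the other 7 genes, the median was -0.24, -0.33 and 0.02, and that over all genes tested was -0.12, -0.22 and -0.17.

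**Figure D1:**
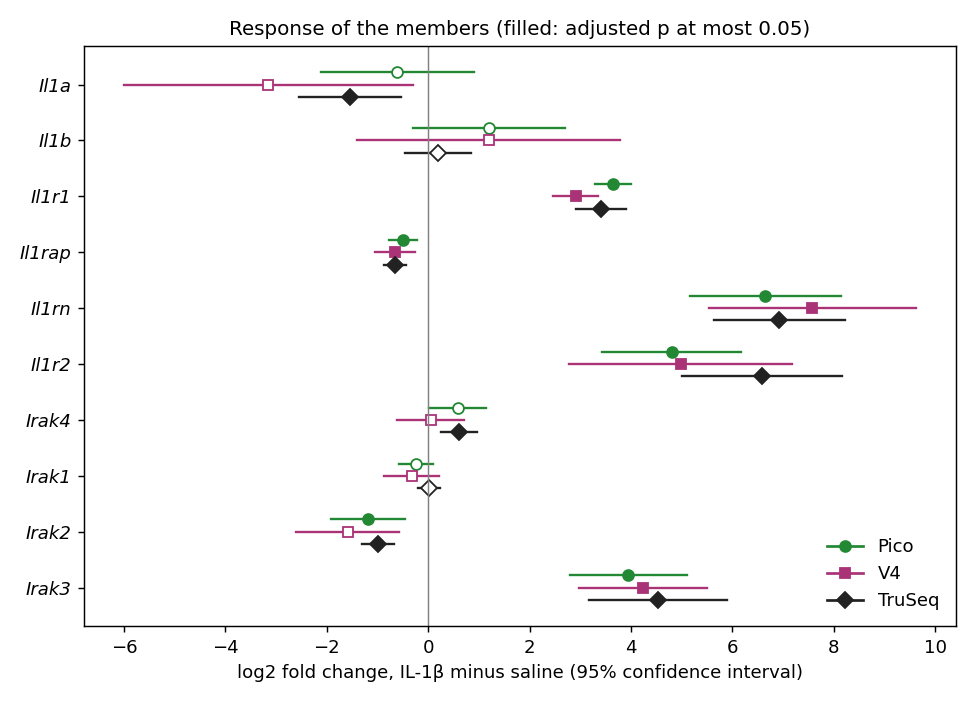
Log2 fold change of each gene after IL-1β relative to saline (x axis, log2 units) by kit, with points for the limma-voom estimate, bars for its 95% confidence interval and filled points for an adjusted p of at most 0.05. Il1rn, Il1r2, Irak3 and Il1r1 lie far right of 0 in all 3 kits and Il1rap lies left of 0 in all 3. The Il1r2 estimates in Pico and TruSeq depend on a small count that voom adds, since all saline libraries were at 0. The V4 estimate does so in part, with saline counts of 0, 0 and 6.

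Among the agonists, Il1a, whose product is often held inside cells and released on damage, had few reads. In TruSeq the IL-1β mice had 7, 16 and 20 counts (mice ILB.9579, ILB.9582 and ILB.9583, an order kept throughout) and the saline mice 47, 56 and 25 (mice UNT.9574, UNT.9575 and UNT.9576). The groups did not overlap, and Il1a fell, with a log2 fold change of -1.54 ± 0.45 (SE, n = 3 and 3, limma-voom adjusted p = 0.0241). In V4 the counts were 0, 0 and 33 after IL-1β and 27, 12 and 17 after saline, so mouse ILB.9583 exceeded every saline mouse while the other two IL-1β mice had no read (adjusted p = 0.155 by limma-voom). In Pico the counts ran from 3 to 6 after IL-1β and 5 to 15 after saline (adjusted p = 0.63 by limma-voom). The TruSeq call was lost when any of the mice UNT.9574, UNT.9575, ILB.9579, ILB.9582 or ILB.9583 was left out (adjusted p up to 0.108 by limma-voom), and when the libraries were thinned to equal totals.

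Il1b, the endogenous gene of the injected cytokine, stayed at the edge of detection. It had 16, 20 and 16 counts after IL-1β and 18, 17 and 12 after saline in TruSeq, and 11, 9 and 7 against 18, 7 and 0 in V4. The groups overlapped in both kits. In Pico the IL-1β mice had 9, 9 and 10 counts and the saline mice 2, 9 and 3, which separated the groups in CPM by a narrow gap. No kit called Il1b, with limma-voom adjusted p of 0.625 in TruSeq, 0.292 in Pico and 0.595 in V4. The interval of the log2 fold change in TruSeq was -0.46 to 0.85, and in V4 it was -1.40 to 3.78, so a sizeable change in V4 was not detectable at this depth and spread.

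Il1rn, the gene of the receptor antagonist, had the largest log2 fold change of the genes with reads in every library. In TruSeq it had 2194, 1783 and 1080 counts after IL-1β and 14, 23 and 7 after saline, and in Pico 898, 849 and 547 against 21, 4 and 4. In V4 it had 2436, 2517 and 1581 against 39, 24 and 1. The lowest IL-1β library exceeded the highest saline library many times over in each kit, and mouse ILB.9583 was the lowest IL-1β mouse in all 3. The log2 fold change was 6.66 ± 0.71 in Pico (SE, n = 3 and 3), 7.58 ± 0.93 in V4 and 6.93 ± 0.58 in TruSeq, with limma-voom adjusted p of 5.54e-06, 0.000658 and 2.9e-05. The call held under all 14 alternative settings in each kit, while the V4 value was 6.10 without UNT.9576 and 8.48 without UNT.9574, and the Pico value 7.41 without UNT.9574.

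The receptor chains went in opposite directions. Il1r1, the signalling receptor, had 11305, 9485 and 8840 counts after IL-1β and 1451, 738 and 802 after saline in TruSeq. It had 3598, 3396 and 3501 against 437, 223 and 234 in Pico, and 1621, 1478 and 1635 against 246, 198 and 191 in V4. The groups were far apart in each kit, and among the saline mice UNT.9574 was the highest in all 3. The rise was 12.6-fold in Pico (log2 3.65 ± 0.17, SE, n = 3 and 3), 7.52-fold in V4 (2.91 ± 0.20) and 10.6-fold in TruSeq (3.41 ± 0.22), with limma-voom adjusted p of 2.2e-10, 1.44e-05 and 7.77e-06.

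Il1rap, the accessory chain that the signalling complex needs, was lower after IL-1β. In TruSeq it had 1302, 1243 and 1163 counts against 1852, 2153 and 2036 after saline, in Pico 405, 357 and 434 against 569, 542 and 606, and in V4 1344, 1492 and 1241 against 2065, 2586 and 1836. Every IL-1β mouse was below every saline mouse in each kit, at a modest distance. The log2 fold change was -0.50 ± 0.13 in Pico (SE, n = 3 and 3), -0.65 ± 0.18 in V4 and -0.66 ± 0.10 in TruSeq, and the limma-voom adjusted p was 0.0119, 0.0375 and 0.000675. With TMM factors, which moved the median of all genes by 0.16 (log2) in TruSeq, 0.13 in Pico and 0.17 in V4, the values were -0.50, -0.37 and -0.48 and only the TruSeq call remained (limma-voom adjusted p of 0.003, 0.0655 and 0.129). The Pico and V4 calls were lost with edgeR and DESeq2 too. The Pico call was also lost without mouse ILB.9582 (adjusted p = 0.0739 by limma-voom), and the V4 call without any of UNT.9574, UNT.9575, ILB.9579, ILB.9582 and ILB.9583 (up to 0.144).

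An antisense transcript, RP24-345H5.2, shares 552 exon bases with Il1rap on the opposite strand, and it was looked up after the values of Il1rap were seen. It had 665 to 689 counts after saline and 149 to 178 after IL-1β in TruSeq, and 77 to 116 against 31 to 47 in Pico, without overlap in either stranded kit. V4 does not keep the strand, so reads of the shared bases cannot be told apart there. In V4 the antisense transcript had 155 to 197 counts after saline and 68 to 78 after IL-1β, the same direction as Il1rap. Its part in the V4 value of Il1rap was not tested.

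Il1r2, the decoy receptor, was not detected in saline livers by the stranded kits. It had 0 counts in all 3 saline libraries of Pico and of TruSeq, where a count of 0 allows up to 3, and 11, 11 and 19 counts after IL-1β in Pico and 29, 77 and 44 in TruSeq. Against that floor of 3 counts per library it was at least 4.64-fold higher in Pico and at least 17.2-fold higher in TruSeq (limma-voom adjusted p of 5.82e-05 and 0.000117). In V4 it had 19, 79 and 32 counts after IL-1β and 0, 0 and 6 after saline, a ratio of summed counts of 21.8 with a counting interval of 9.73 to 60.4 (limma-voom adjusted p = 0.00979). The V4 ratio and the bounds are different quantities and do not rank the kits. Mouse ILB.9582 was the highest in V4 and TruSeq, and without it the V4 ratio was 12.8, against 14.6 without UNT.9574 and 14.5 without UNT.9575. All saline reads in V4 came from UNT.9576. Without mouse UNT.9574 or UNT.9575 the V4 call was lost (adjusted p of 0.0775 and 0.0857 by limma-voom).

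**Figure D2:**
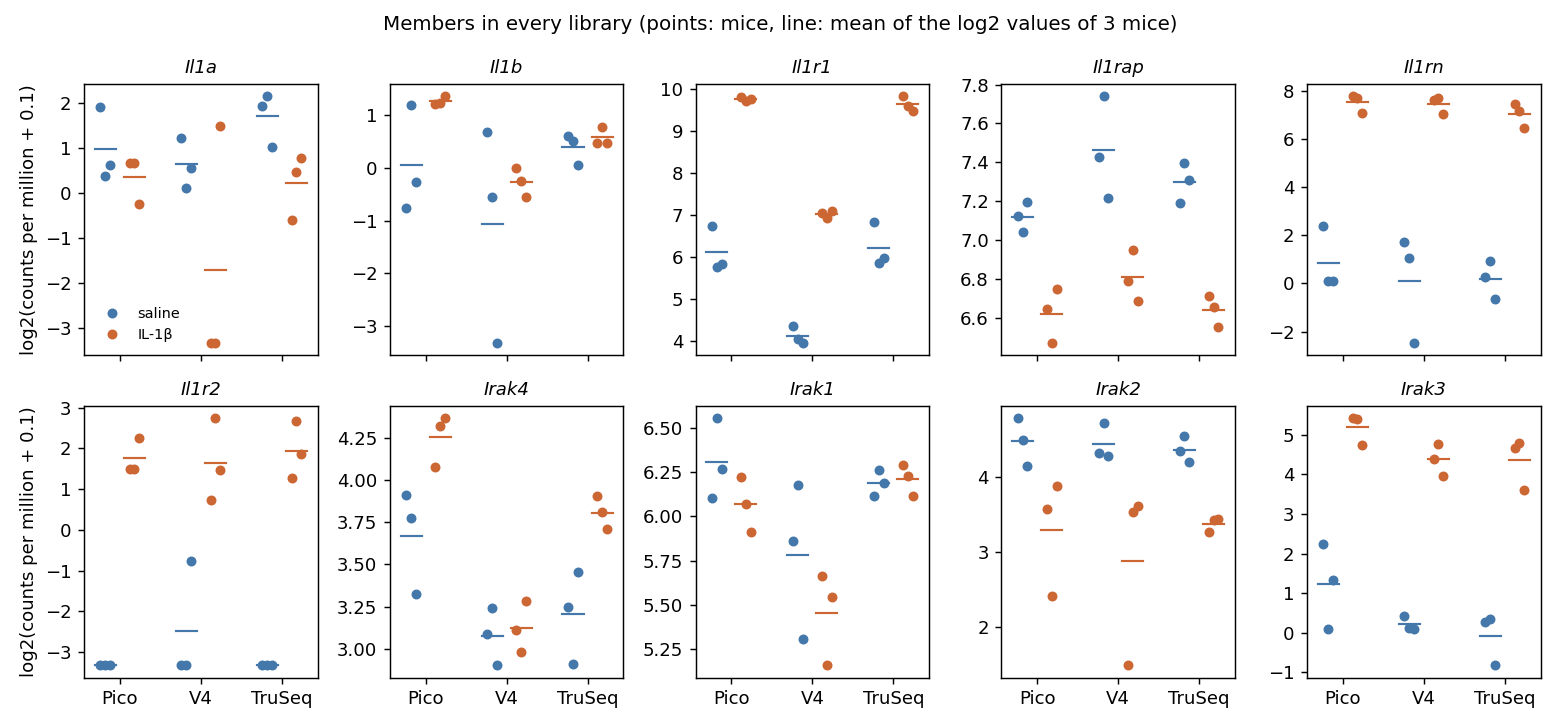
Level of each of the 10 genes (y axis, log2 of CPM with 0.1 added) in the 18 libraries by kit (x axis), with a point for each mouse and a line at the mean of the 3 log2 values, and with a scale for each gene. For Il1rn, Il1r1, Il1r2 and Irak3 the IL-1β points lie above all saline points in every kit, and for Il1rap and Irak2 below them. The Il1r1 points of V4 lie below those of the other kits in both groups.

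Of the kinases, Irak4, which sits first in the chain and acts on IRAK1, had 185, 172 and 161 counts after IL-1β and 119, 95 and 140 after saline in TruSeq, and rose by a log2 fold change of 0.61 ± 0.16 (SE, n = 3 and 3, limma-voom adjusted p = 0.0158). In Pico it had 68, 80 and 83 against 61, 56 and 41 counts, with a nearly equal estimate of 0.59 that did not pass (adjusted p = 0.153 by limma-voom). In V4 the groups overlapped, at 94 to 116 against 91 to 113 counts (0.05, interval -0.61 to 0.71). The TruSeq call was lost when UNT.9574, UNT.9575, ILB.9579 or ILB.9582 was left out, and when all libraries were thinned to equal totals (adjusted p = 0.117).

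Irak1, the kinase that passes the signal on to TRAF6, was level in TruSeq, at 972, 923 and 857 counts after IL-1β and 877, 980 and 935 after saline. The groups overlapped in every kit, and the log2 fold change was 0.02 in TruSeq (95% interval -0.19 to 0.24), -0.24 in Pico (-0.58 to 0.10) and -0.33 in V4 (-0.87 to 0.22).

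Irak2, a relative of Irak1 that sustains later signalling, was lower after IL-1β. It had 118, 132 and 134 counts against 257, 298 and 235 after saline in TruSeq, 48, 21 and 59 against 112, 93 and 73 in Pico, and 33, 139 and 146 against 240, 319 and 240 in V4. The groups did not overlap in any kit, and the spread among IL-1β mice was widest in V4, where mouse ILB.9579 stood low. The log2 fold change was -0.99 ± 0.14 in TruSeq (SE, n = 3 and 3, limma-voom adjusted p = 0.000552) and -1.18 ± 0.34 in Pico (0.0233). In V4 it was -1.58 ± 0.46 and just missed the threshold (adjusted p = 0.0511 by limma-voom), and it was -0.88 without ILB.9579 (0.124). The V4 adjusted p was 0.0364 when genes under 10 counts in 3 libraries were filtered out, and 0.0709 with DESeq2, 0.0728 with edgeR and 0.087 with TMM factors in voom. The Pico call was lost when UNT.9574, UNT.9575, ILB.9579 or ILB.9582 was left out.

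Irak3, the inhibitory member, was the kinase with the clearest response. It had 315, 343 and 151 counts after IL-1β and 14, 15 and 6 after saline in TruSeq, 172, 170 and 108 against 19, 4 and 10 in Pico, and 255, 330 and 187 against 15, 12 and 12 in V4. All IL-1β libraries lay far above all saline libraries, and mouse ILB.9583 was again the lowest IL-1β mouse in every kit. Irak3 rose by a log2 fold change of 3.95 ± 0.55 in Pico (SE, n = 3 and 3), 4.23 ± 0.57 in V4 and 4.53 ± 0.61 in TruSeq (limma-voom adjusted p of 7.76e-05, 0.00119 and 0.000421), and the call held under all 14 alternatives in each kit. Its exons share 192 bases with Tmbim4 on the other strand, whose counts overlapped between the groups in each kit. Tmbim4 had 631 to 689 counts after IL-1β and 648 to 690 after saline in TruSeq. In V4, which pools the strands, it had 1510 to 1689 and 1543 to 1758.

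The brakes were set against their partners by the ratio of the counts of a pair within a library (log2, 0.5 added to each count), which needs no scaling between libraries. Il1rn relative to Il1b moved from -0.22 after saline to 6.51 after IL-1β in TruSeq, from 0.80 to 6.25 in Pico and from 1.46 to 7.83 in V4. Irak3 relative to Irak4 moved from -3.37 to 0.56 in TruSeq, -2.43 to 0.93 in Pico and -2.92 to 1.26 in V4. Il1rn relative to Il1r1 rose too, by 3.52, 3.00 and 4.65 in the same kits, although Il1r1 itself had increased. The groups did not overlap for these 3 pairs in any kit, which gave the smallest p that an exact two-sided permutation test allows with 3 against 3 mice, 0.1 (0.109 after Benjamini-Hochberg adjustment over the 12 ratios tested).

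The ratio of the decoy Il1r2 to Il1r1 differed by 3.18 in TruSeq, 1.16 in Pico and 2.07 in V4 between IL-1β and saline (exact permutation p of 0.1, 0.1 and 0.3, and 0.109, 0.109 and 0.3 adjusted). The groups overlapped in V4. Since the saline counts of Il1r2 were 0 in most libraries, this ratio rested on the added count, and with 5 added the difference was 0.002 in TruSeq (exact permutation p = 1), -1.73 in Pico and -0.18 in V4. The size of this difference thus depended on the added count, and in Pico and V4 so did its sign. An added count of 5 is above the 3 that a count of 0 allows. Against that floor of 3, the group mean of Il1r2 was at least 17.2-fold higher in TruSeq, above the 10.6-fold rise of Il1r1. In Pico the bound of 4.64-fold lay below the 12.6-fold rise of Il1r1 and gives no direction. These bounds cover counting error only, and the comparison was not tested.

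**Figure D3:**
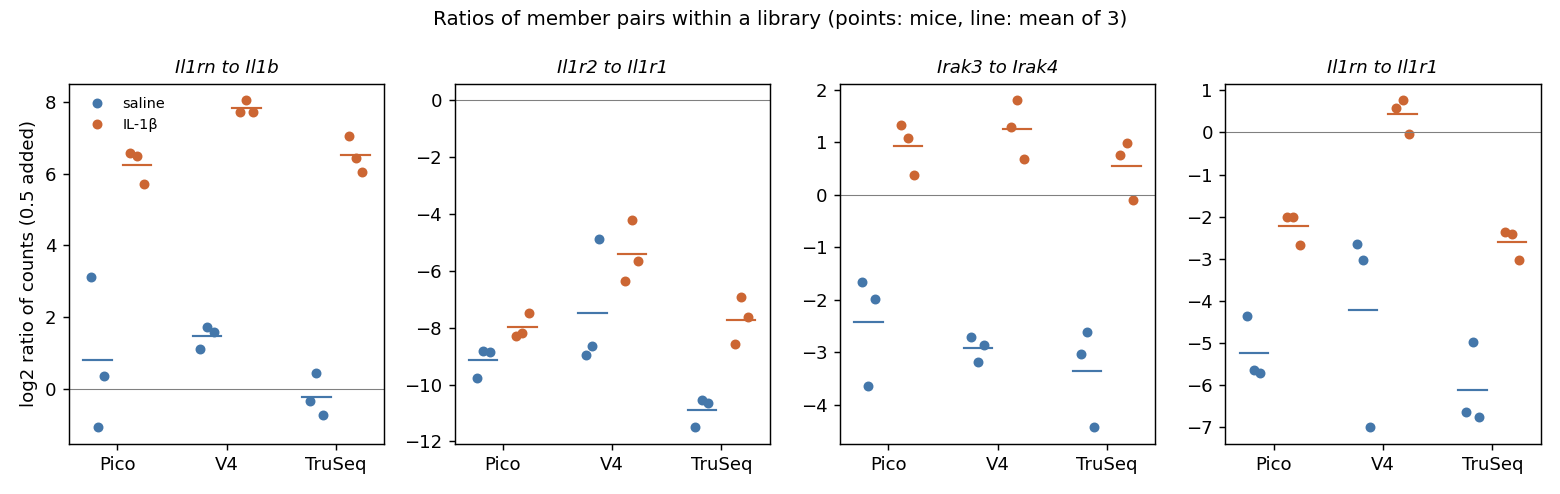
Log2 ratio of the counts of gene pairs within each library (y axis, 0.5 added to each count) by kit (x axis), with a point for each mouse and a line at the mean of 3 mice. For Il1rn to Il1b, Irak3 to Irak4 and Il1rn to Il1r1 all IL-1β points lie above all saline points in each kit, and for Il1r2 to Il1r1 the groups overlap in V4.

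Levels of different genes were compared as CPM per kilobase of exon (RPKM). After saline in TruSeq the highest were Irak1 (15.5 ± 0.77, SD, n = 3), Il1r1 (15.5 ± 6.26) and Il1rap (13.9 ± 0.96), whose ranges overlapped, followed by Irak2 (3.72 ± 0.46), Irak4 (1.84 ± 0.35) and Il1a (1.69 ± 0.64), of which the last pair overlapped. Below them were Il1b (0.64 ± 0.14), Il1rn (0.36 ± 0.20) and Irak3 (0.25 ± 0.11), each overlapping the next, and Il1r2 at 0. After IL-1β the order opened with Il1r1 (158 ± 20.1) and Il1rn (42.4 ± 14.1), which did not overlap, then Irak1 (15.7 ± 0.98), Il1rap (8.78 ± 0.49) and Irak3 (5.92 ± 2.28), none of which overlapped. Il1r2 (3.02 ± 1.49) overlapped both Irak3 above it and Irak4 (2.77 ± 0.19) and Irak2 (1.87 ± 0.13) below it, and Il1b (0.73 ± 0.10) and Il1a (0.59 ± 0.27) came last and overlapped. The antagonist moved from among the lowest of the family to the second place. In V4 it stood first after IL-1β (56.1 ± 13.3), above Il1r1 (25.8 ± 1.37), and in Pico second (59.1 ± 14.7, against 171 ± 4.49).

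Relative to the sum of the agonists, the mean RPKM of Il1rn was 0.442-fold after saline and 32.1-fold after IL-1β in Pico, 0.483-fold and 65.9-fold in V4, and 0.153-fold and 32.1-fold in TruSeq. The V4 value after IL-1β was 147-fold without mouse ILB.9583, which held all Il1a reads of its group, and the Pico value after saline was 0.21-fold without UNT.9574. Irak3 made up 3.01%, 1.63% and 1.17% of the summed RPKM of the 4 kinases after saline in Pico, V4 and TruSeq, and 33.6%, 31.3% and 22.6% after IL-1β. The Pico share after saline was 1.88% without UNT.9574. The decoy was a small part of the ligand-binding receptors after IL-1β, at 1.88% in TruSeq, 1.46% in Pico and 9.42% in V4, where it was 5.6% without ILB.9582. After saline the share was 0% in TruSeq and Pico and 3.39% in V4 (0% without UNT.9576). After IL-1β, V4 read Il1r1 at 25.8 RPKM against 158 in TruSeq and 171 in Pico, while Il1r2 was at 2.68, 3.02 and 2.53. The ratios and shares given here are ratios of group means, without a test.

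The kits differed in the level of Il1r1. In CPM, V4 read it lower than TruSeq in 6 of 6 mice, by a log2 ratio of -2.35 ± 0.37 (SD), where the median of 10266 genes was -0.34. Pico and TruSeq read it alike (0.01 ± 0.17). Irak1 was also lower in V4 than in TruSeq in 6 of 6 mice (-0.58 ± 0.37). Because each table was normalized separately, these kit ratios are a description without a test.

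The response itself was not called different between kits for any of the 10 genes. The limma-voom interaction of kit and treatment called 0 of 17207 genes between Pico and TruSeq, 0 of 17147 between V4 and TruSeq and 0 of 16395 between Pico and V4 (0% each), while 5.49%, 6.36% and 5.49% had an unadjusted p under 0.05. Over all genes, the fit with the mouse as a block called 1, 0 and 0, edgeR 0, 0 and 0, and DESeq2 4, 62 and 14, none of them among the 10. Of the 10 genes, 0, 0 and 1 had an unadjusted p under 0.05 in the limma-voom interaction, and none was called. That gene was Il1r1 between Pico and V4, whose log2 fold changes differed by 0.74 (95% interval 0.14 to 1.33, unadjusted p = 0.0178 and adjusted p = 0.793 by limma-voom). With the mouse as a block the difference was 0.69 (unadjusted p = 0.0056 and adjusted p = 0.625 by limma-voom). For Il1rn the difference was -0.28 between Pico and TruSeq (interval -2.61 to 2.06), and for Irak3 -0.58 (-2.53 to 1.37), so differences of more than 1 log2 unit between kits lay within these intervals. For Il1rap, the interval between V4 and TruSeq was much narrower, at -0.41 to 0.43. All these intervals come from the fit without the mouse as a block, so they do not use the pairing.

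Other steps of the pathway are given beside the share of all genes called in either direction, which was 34.1% in TruSeq, 17.6% in Pico and 11% in V4. Of 17 genes of the adaptors and of the TAK1 and IKK steps, 3 rose and 1 fell in Pico, 2 rose in V4, and 5 rose and 2 fell in TruSeq. Myd88, the adaptor that binds the IRAK kinases, rose by a log2 fold change of 2.21 ± 0.25 in Pico (SE), 2.33 ± 0.19 in V4 and 1.86 ± 0.13 in TruSeq (limma-voom adjusted p of 8.49e-06, 4.17e-05 and 9.95e-06). Ikbkg, the regulatory subunit of the IKK complex, rose in all 3 by 0.43, 0.74 and 0.65. Tab2, a partner of TAK1, rose in Pico (0.67) and TruSeq (0.79), and Peli2, a ubiquitin ligase that acts on IRAK proteins, fell in both (-0.99 and -1.09). The median log2 fold change of the list was 0.15, -0.09 and 0.14 in Pico, V4 and TruSeq. These shares of the list are near those of all genes.

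Of the other IL-1 family ligands, 4 had reads, of which 2 rose in Pico, 0 in V4, and 2 rose and 1 fell in TruSeq. Il33, an alarmin that uses the accessory chain IL-1RAP, rose in Pico (30.3 against 1.33 mean counts, log2 4.14 ± 0.61, SE) and in TruSeq (162 against 22, 2.90 ± 0.20), with limma-voom adjusted p of 0.000133 and 1e-05. In V4 its estimate was 3.43 ± 1.22 (adjusted p = 0.101). Il1f9, an IL-36 gene, rose in Pico and TruSeq from means of at most 0.333 counts to 3.00 and 7.33. In V4 its means were 6.33 after IL-1β and 4.33 after saline, and the groups overlapped (adjusted p = 0.427 by limma-voom). Few reads stand behind these values in every kit. Of the other family receptors, 0 of 4 changed in Pico, 0 of 5 in V4, and 1 rose and 1 fell of 5 in TruSeq. The lower gene was Sigirr, at a log2 fold change of -0.55 ± 0.15 (SE, limma-voom adjusted p = 0.0189). Its estimates were -1.05 in Pico and -0.37 in V4 and were not called. The median log2 fold change in TruSeq, Pico and V4 was 1.56, 1.70 and 0.93 for these ligands, 0.33, 1.06 and -0.37 for these receptors, and 0.11, 1.14 and 0.05 for IL-1 processing. Among 6 genes of IL-1 processing, 1 rose in Pico and in V4, and 2 rose and 2 fell in TruSeq. Gsdmd, the pore-forming protein that lets mature IL-1β out of cells, rose in all 3 kits (1.19, 1.08 and 1.32). The lists are too short to set apart from the share of all genes called, and that of 1 of 6 in Pico is close to it.

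Each well-covered gene was matched with the 2 genes whose profile over the 18 libraries was most like its own, out of 8960 that averaged 20 counts or more per library in all kits, by the root mean square difference of log2 CPM after removing the kit means. This was a description of likeness and 7 of the 10 genes qualified. The closest to Il1r1 were Btg2 (0.31) and Apcs (0.34), the latter encoding the pentraxin serum amyloid P. The closest to Il1rap were Sucla2 (0.096) and Atg3 (0.099), to Irak2 Srpk2 (0.28) and Stxbp6 (0.33), and to Irak3 Ifi47 (0.44) and Plscr1 (0.46). Irak1 was closest to Icmt (0.13) and Cct8 (0.14), and Irak4 to Ptpmt1 and Ubn2 (0.17 each). For Il1rn the distance was largest of the 7, with Syt12 and Tlr2 both at 1.07. Its saline counts went down to 1 in V4 and 4 in Pico, and the part of such low counts in the distance was not tested.

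Markers of other cell types moved with treatment. Of the neutrophil markers, 10 of 10 tested rose in Pico, 8 of 11 in V4 and 10 of 12 in TruSeq, and their summed level was 60.3 to 77.5 CPM after IL-1β against 0.971 to 7.02 after saline in Pico, 47.5 to 92.1 against 3.48 to 6.33 in V4, and 55.5 to 105 against 4.84 to 7.67 in TruSeq. Among them Ly6g and Camp stayed near 0, at means of 1.33 and 1.67 counts after IL-1β in TruSeq. Neutrophils and monocytes are known to express Il1r2, Il1rn, Irak3 and Il1b. Of the 5 monocyte markers, 0 changed in Pico, 2 rose in V4 and 3 rose in TruSeq (13.3 to 18.4 against 6.77 to 9.88 CPM). Of the 8 Kupffer cell and macrophage markers, 4 fell in Pico, 2 in V4 and 5 in TruSeq, where 1 rose (67.3 to 97.7 against 136 to 229 CPM). Their part in the changes of the 10 genes was not tested.

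Of the remaining lists, endothelial markers fell for 4 of 6 genes in TruSeq, 3 in Pico and 2 in V4 and rose for 1, 2 and 0. In the same order of kits, stellate cell markers fell for 3, 2 and 1 of 5, lymphocyte markers for 3 of 6, 0 of 5 and 1 of 6, and hepatocyte markers for 3, 5 and 2 of 6, with 1, 1 and 0 higher. Cholangiocyte markers rose for 2, 1 and 0 of 4. In the same order of kits, 21.8%, 10.8% and 7.41% of all genes were lower and 12.3%, 6.78% and 3.6% higher, and several of these counts are within 1 gene of that share. Endothelial cells and hepatocytes both carry IL-1R1, and the part of these shifts was not tested either. Of the 8 IL-1 response genes, 6, 5 and 4 rose, and 0 fell in any kit.

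**Figure D4:**
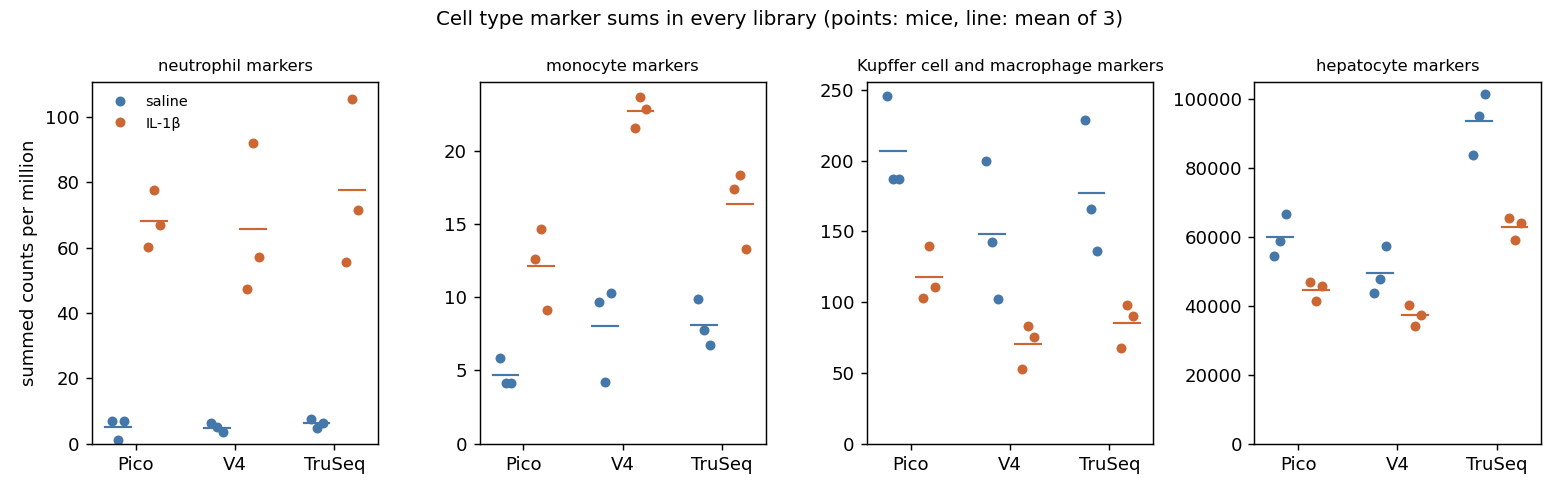
Summed level of 4 marker lists (y axis, CPM, starting at 0) in each library by kit (x axis), with a point for each mouse and a line at the mean of 3 mice. The neutrophil sums of IL-1β mice lie between 47.5 and 105 CPM, above all saline mice, and the Kupffer cell and hepatocyte sums of IL-1β mice lie below those of the saline mice of the same kit.

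In the GENCODE annotation of mm9 (NCBIM37), which has the build of the counts, the genes lay as follows. Il1rn was at chr2:24192373-24207014 on the plus strand, and Il1a at chr2:129125346-129135708 and Il1b at chr2:129190306-129196875 on the minus strand. The receptor genes Il1r2 (chr1:40141613-40182064) and Il1r1 (chr1:40281925-40373043) were neighbours on the plus strand of chromosome 1, and Il1rap was at chr16:26581790-26730203 on the plus strand. The kinase genes were at chrX:71259253-71269257 (Irak1, minus), chr6:113588461-113645003 (Irak2, plus), chr10:119578704-119639186 (Irak3, minus) and chr15:94374074-94412246 (Irak4, plus). Counts were taken over exons. Il1a shares 222 exon bases with the antisense RNA gene Gm14023, Il1b 25 with Gm14047 and Irak4 395 with Twf1, all on the opposite strand. In TruSeq Gm14023 had at most 10 counts and Gm14047 at most 1 in any library. Twf1 had 941 to 988 counts after IL-1β and 825 to 847 after saline in TruSeq. In V4, which pools the strands, Twf1 had 237 to 286 and 209 to 275, and Gm14023 at most 5.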

How the data were processed

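RNA-Seq of liver was analysed for 3 IL-1β and 3 saline mice in each of 3 kits. The authors aligned paired reads to mm9 with GSNAP, removed ribosomal reads, and used PORT to resample the libraries of a kit to the same depth and to count reads that followed annotated junctions. The deposited values are counts in whole reads per gene, with both strands pooled for V4 and the sense strand alone for the stranded kits. No molecular identifiers were used, so counting intervals and floors cover counting error only. The annotation version is not given in the sources used here, and neither is the run behind the Pico table.

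The main test was limma-voom (limma 3.58.1, R 4.3.3), run kit by kit with the library totals as scaling on every gene that had a read in 1 library or more, with Benjamini-Hochberg adjustment over all genes and an adjusted p of at most 0.05. The difference between kits was an interaction of kit and treatment over the libraries of a pair of kits. Ratios of genes were compared with an exact two-sided permutation test. RPKM used the exon union of GENCODE vM1. Promoter windows came from RefSeq. Totals and replicates were compared, and mice of 1 group differed by more than sampling noise in every kit. Alternatives were edgeR 4.0.16 (quasi-likelihood, TMM), DESeq2 1.42.0, TMM in voom, at least 10 counts in 3 libraries, no filter, thinning to 4024632 counts (median of 5 draws), other thresholds and added counts, and leaving out each mouse. The fits were tested on simulated data. Figures used matplotlib 3.10.9 in Python 3.11.15.

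All 10 genes are named in every kit. From each other list, genes called the same way in at least 2 kits could be named. Sigirr, Cxcl1, Tnfaip3, Ly6g and Camp do not meet that rule and are named as exceptions. The members and lists were chosen with earlier results of these data known. The same RNA entered every kit, so mouse numbers pair libraries across kits. Deviations from the group means of the same mouse correlated at 0.0591 to 0.206 for Pico with V4, 0.154 to 0.374 for V4 with TruSeq and 0.176 to 0.406 for Pico with TruSeq, and at -0.321 to -0.02 for other mice. The deviations within a group sum to 0, so the negative values for other mice follow in part from the calculation.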

Additional observations from a re-analysis of the deposited data

How the results depend on the processing

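The 13 of 19 gene and kit calls that kept their call under every alternative were those of Il1r1, Il1rn and Irak3 in all 3 kits, Il1r2 in Pico and TruSeq, and Il1rap and Irak2 in TruSeq. The counts of lower genes depended on the settings. In Pico 1 gene was lower with edgeR, DESeq2 or TMM factors in voom and 0 at an adjusted p of 0.01, against 2, and leaving out each mouse in turn gave 0 to 2. In V4 it was 0 with edgeR, DESeq2, TMM factors in voom or an adjusted p of 0.01, and 2 with the filter of 10 counts or an adjusted p of 0.1, against 1, and 0 to 1 without each mouse. Leaving out mice gave 4 to 5 higher and 2 to 3 lower genes in TruSeq, 4 higher in Pico and 3 to 4 higher in V4. The difference in the ratio of Il1r2 to Il1r1 reversed with 5 added counts in Pico (-1.73) and V4 (-0.18) and was 0.002 in TruSeq (exact permutation p = 1). Without each mouse, the log2 fold change ranged from -0.34 to 2.29 for Il1b in V4, -0.04 to 0.13 for Irak4 in V4 and -0.019 to 0.071 for Irak1 in TruSeq, so these signs are not settled. The cause was not tested. With the mouse as a replicate block, the interaction called 0 of the 10 genes for each pair of kits, and the pairing changed no call of these genes. Calls in the 5 lists of IL-1 family, pathway and response genes, without the cell type markers, numbered 22 in TruSeq, 12 in Pico and 7 in V4, and 16 to 20, 10 to 11 and 6 without each mouse. The lowest counts were those of Il1a and Il1b in all kits, and of Il1r2, Il1rn and Irak3 in saline mice, where few reads stand behind a value.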
